A study of Homo sapiens with 24 samples.

Results

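STC2 and VLDLR are a secreted-glycoprotein gene and a lipoprotein-receptor gene whose array signals were followed here in 4 human lines of acute myeloid leukaemia, with and without metformin. They are 2 of the 14884 genes that the array annotation names, and each is named by 1 array feature. Both were chosen by their measured metformin differences in these arrays, so those differences are given as a description, with no test. The lines were HL60 (promyelocytic), KG1a (immature, CD34-positive), MOLM14 (monocytic) and U937 (monocytic), all established and grown in culture. Treated cells were kept with metformin at 10 mM for 24 h. This drug, a biguanide given in diabetes, inhibits complex I of the respiratory chain. There were 8 groups of line and treatment with 3 arrays each, named A, B and C. The labels call KG1a and MOLM14 lines of high oxidative phosphorylation and HL60 and U937 lines of low oxidative phosphorylation, and they call treated KG1a and MOLM14 low. Values are normalized signals on a log2 scale, in which a difference of 1 is a doubling of signal.

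Stanniocalcin 2, the product of STC2, is a secreted glycoprotein. It binds and inhibits the protease PAPP-A, which otherwise cuts IGF-binding protein 4 and frees insulin-like growth factor. Its gene is known as a target of the transcription factor ATF4 in the integrated stress response, the program that cells switch on when endoplasmic reticulum stress, amino acid shortage or mitochondrial damage leads to phosphorylation of eIF2 alpha. VLDLR, the very-low-density lipoprotein receptor, is a member of the lipoprotein receptor family that takes up triglyceride-rich lipoproteins carrying apolipoprotein E. It is also a receptor for reelin in neurons, and ATF4, hypoxia-inducible factor and PPAR gamma have each been described as regulators of its gene.

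The sequences just before the 2 gene starts are shown because both genes are described as targets of stress-activated transcription factors. They come from RefSeq (build GRCh38.p14), and each is 250 bases, 5′ to 3′ on the gene's own strand. STC2 starts on the minus strand of chromosome 5 and its stretch is chr5:173328415-173328664. VLDLR starts on the plus strand of chromosome 9 and its stretch is chr9:2621537-2621786. Capitals mark every match, on either strand, to any of the 6 motifs searched.
STC2: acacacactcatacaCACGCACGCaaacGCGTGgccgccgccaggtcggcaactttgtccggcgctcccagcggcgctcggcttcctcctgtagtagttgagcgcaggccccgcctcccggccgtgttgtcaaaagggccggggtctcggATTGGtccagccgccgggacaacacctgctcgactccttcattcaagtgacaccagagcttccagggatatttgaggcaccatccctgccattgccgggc
VLDLR: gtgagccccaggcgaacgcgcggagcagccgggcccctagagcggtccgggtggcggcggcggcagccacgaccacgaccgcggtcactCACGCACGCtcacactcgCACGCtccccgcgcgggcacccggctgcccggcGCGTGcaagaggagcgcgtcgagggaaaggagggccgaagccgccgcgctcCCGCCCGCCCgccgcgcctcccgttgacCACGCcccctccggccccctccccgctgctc

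The motifs searched on both strands were GCGTG and ACGTG, the cores of the hypoxia-inducible factor site, the CCAAT box, the GC box GGGCGG, the cAMP-response element TGACGTCA and the C/EBP-ATF composite site, searched as TGATGNAA. GCGTG matched 3 times before STC2, with 2 of the matches overlapping by 1 base, and 5 times before VLDLR, again with such an overlapping pair. It is present in 31.9% of the 27305 RefSeq stretches of the same length. STC2 had 1 CCAAT match (33.0% of all stretches hold one) and VLDLR had 2 overlapping GC boxes (42.3%). Neither stretch held ACGTG (18.7%), TGACGTCA (1.77%) or TGATGNAA (3.19%). The last was found before 3 of the 25 integrated stress response genes with a RefSeq stretch. G and C made up 63.6% of the STC2 stretch and 78.8% of the VLDLR stretch, against a median of 58% over all stretches. A match is a stretch of letters and not a measured binding site.

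The arrays were checked against markers of myeloid cells, and KG1a carried the fewest. Of the 20 myeloid markers listed, 13 are named on the array, and 9 of them lay at or over 4.02, the median of all signals, in untreated HL60, 11 in MOLM14, 9 in U937 and 6 in KG1a. MPO, LYZ and PRTN3, granule and lysozyme genes, were under 4.02 in KG1a, where CD34 was at 11.2. MPO was also under it in U937, and CD14 was under it in every group. The summed linear signal of the 13 markers ran from 8900 to 9420 in untreated HL60 and from 7400 to 7900 in treated HL60, from 9950 to 10300 and from 8660 to 9170 in MOLM14, from 6280 to 6780 and from 5250 to 5500 in U937, and from 2520 to 2680 and from 2570 to 2850 in KG1a. Such a sum follows its highest members. In KG1a it came mostly from CD34, which was under 4.02 in the other lines. The next highest marker in untreated KG1a, CD68, was at 5.035. In untreated HL60 MPO (12.5) and PRTN3 (11.4) were highest. Of 10 markers of lymphoid, erythroid, megakaryocytic, epithelial and fibroblast cells, 7 lay at or over 4.02 in untreated HL60 and U937 and 5 in KG1a and MOLM14, the keratin gene KRT18 highest with group means of 6.60 to 7.62. The part of these markers in the values of STC2 and VLDLR was not tested. Array medians lay between 3.99 and 4.08, and replicate arrays correlated at 0.983 to 0.993. Of the arrays least like the rest of their own group, the 3 with the lowest mean correlations to the other 2 arrays were HL60 control C (0.9838), U937 metformin A (0.9855) and U937 control C (0.9871). HL60 control A, second in its group, was at 0.9868. Separate cultures behind the arrays of a group are not stated in the labels. The p-values therefore take in no more than the scatter among these arrays, and the number of arrays limits the precision. In a bulk RNA sample, fewer cells with a transcript and less of it per cell cannot be told apart.

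STC2, the inhibitor of PAPP-A, was highest in metformin-treated HL60. Untreated HL60 arrays A to C gave 5.59, 5.65 and 5.33 and the treated arrays 8.50, 8.37 and 8.54. The 2 sets of arrays were far apart. The difference of the group means was 2.95 ± 0.12 (SE, n = 3 per group, limma), or 7.73-fold, the largest of the 10641 genes tested in HL60.

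MOLM14 was the other line in which STC2 was higher after treatment. Its untreated arrays gave 5.09, 4.83 and 5.35 and its treated arrays 5.73, 5.61 and 5.97. All treated arrays lay above all untreated ones, although the untreated arrays were the most scattered of the 8 groups, with an SD of 0.26. The difference was 0.68 ± 0.12 (1.60-fold), in place 25 of the 10641 genes.

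In KG1a and U937 STC2 stayed under 4.02 in both groups. That value is a median and not a measured detection limit, and whether differences under it are compressed was not tested. KG1a gave 3.82, 3.87 and 3.94 untreated and 3.92, 3.76 and 3.72 treated. U937 gave 3.80, 3.62 and 3.87 untreated and 3.82, 3.91 and 3.83 treated. Treated and untreated arrays overlapped in both lines, and the differences, -0.08 ± 0.12 in KG1a and 0.09 ± 0.12 in U937, were no larger than their standard errors.

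VLDLR, the lipoprotein receptor, had a high signal in 3 lines and lay under 4.02 in KG1a. In HL60 the untreated arrays gave 7.45, 7.26 and 7.46 and the treated arrays 8.98, 9.04 and 8.94. The treated arrays were all higher, with a difference of 1.59 ± 0.08 (SE, n = 3 per group, limma), or 3.02-fold, in place 20 of the 10641 genes of HL60.

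U937 differed between the 2 genes: its VLDLR signal was higher after treatment while its STC2 signal was under 4.02 throughout. Untreated U937 arrays gave 7.30, 7.45 and 7.19 for VLDLR and treated arrays 8.11, 8.21 and 8.33. They did not overlap, and the difference was 0.90 ± 0.08 (1.87-fold), in place 23 of the genes of U937.

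MOLM14 had the highest untreated VLDLR signal and a smaller difference. Its untreated arrays gave 8.22, 8.31 and 8.31 and its treated arrays 8.74, 8.68 and 8.57. All treated arrays were higher, by 0.38 ± 0.08 (1.31-fold) on average, in place 241 of the genes of MOLM14. KG1a gave 3.36, 3.39 and 3.48 untreated and 3.24, 3.39 and 3.38 treated, with overlapping arrays and a difference of -0.07 ± 0.08.

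**Figure D1:**
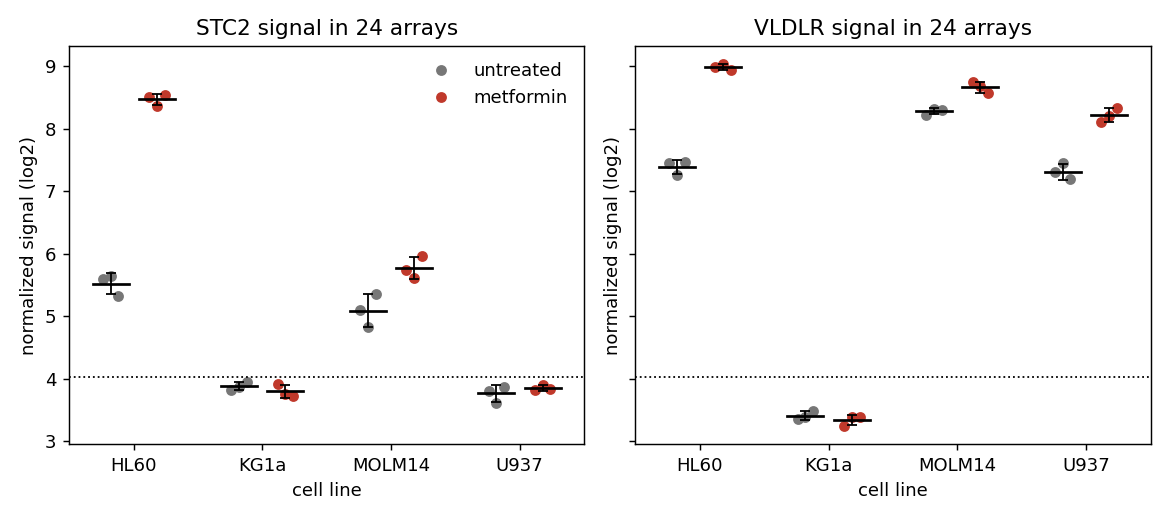
Normalized signal (log2) of STC2 (left) and VLDLR (right) in each of the 24 arrays, by cell line, untreated in grey and metformin-treated in red; long bars are group means, error bars are SD (n = 3) and the dotted line marks 4.02, the median of all signals. STC2 is above that line in HL60 and MOLM14, and VLDLR is above it in every line but KG1a.

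Metformin-treated arrays thus lay wholly above the untreated ones for STC2 in HL60 and MOLM14 and for VLDLR in HL60, MOLM14 and U937. Of all genes tested, 21.2% did so in HL60, 7.31% in KG1a, 13.3% in MOLM14 and 13.6% in U937, while 16%, 13.7%, 13% and 16.3% had treated arrays wholly below. These counts belong to the contrast by which the genes were chosen, and nothing is read from them. HL60 and MOLM14, which shared the higher STC2 signal, carry different oxidative phosphorylation labels. So do KG1a and U937, in which STC2 was under 4.02. The VLDLR differences were 1.59 in HL60 and 0.90 in U937, both lines labelled low. They were 0.38 in MOLM14 and -0.07 in KG1a, both lines labelled high, with the KG1a signal under 4.02. A link of either gene to the labelled classes was not tested.

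Ordered by group mean, STC2 ran from untreated U937 (3.76 ± 0.13, SD, n = 3) through treated KG1a (3.80 ± 0.11) and treated U937 (3.85 ± 0.05) to untreated KG1a (3.88 ± 0.06). The arrays of each neighbouring pair among these 4 groups overlapped. A gap of 1.21 followed, up to untreated MOLM14 (5.09 ± 0.26), then untreated HL60 (5.52 ± 0.17) and treated MOLM14 (5.77 ± 0.18), whose arrays overlapped with those of their neighbours in this trio. The last gap, 2.70, separated these from treated HL60 (8.47 ± 0.09), which stood above 93.7% of all array features.

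VLDLR ran from treated KG1a (3.34 ± 0.08) and untreated KG1a (3.41 ± 0.07), with overlapping arrays, over a gap of 3.90 to untreated U937 (7.31 ± 0.13) and untreated HL60 (7.39 ± 0.12), which overlapped too. Treated U937 (8.22 ± 0.11) and untreated MOLM14 (8.28 ± 0.05) formed the next overlapping pair. Treated MOLM14 (8.66 ± 0.09) and treated HL60 (8.99 ± 0.05) were each clear of the group before. In KG1a the VLDLR signal stood above 20.3% of all array features untreated and above 16% treated, and in the other 6 groups above 88% to 95.7%. With treatment the spread of the means of HL60, MOLM14 and U937 was 0.77, against 0.97 without it.

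The levels in untreated cells were compared between the lines by limma's moderated test. The untreated arrays also enter the metformin differences by which the genes were chosen. STC2 was higher in HL60 than in KG1a by 1.64 ± 0.12 (adjusted p = 4.42e-12) and than in U937 by 1.76 ± 0.12 (adjusted p = 1.68e-12). It was higher in MOLM14 than in U937 by 1.33 ± 0.12 (adjusted p = 3.46e-10), and KG1a minus MOLM14 was -1.21 ± 0.12 (adjusted p = 1.28e-09). HL60 exceeded MOLM14 by 0.43 ± 0.12 (adjusted p = 0.00232), although HL60 control C, at 5.33, lay below MOLM14 control C, at 5.35. KG1a and U937, both under 4.02, differed by 0.12 ± 0.12 (adjusted p = 0.391), with a 95% interval of -0.119 to 0.355.

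For VLDLR the largest untreated difference was that between KG1a and MOLM14, both labelled as lines of high oxidative phosphorylation. KG1a minus MOLM14 was -4.87 ± 0.08 (adjusted p = 1.74e-24 by limma's test), KG1a minus U937 was -3.90 ± 0.08 (adjusted p = 1.54e-22) and HL60 exceeded KG1a by 3.98 ± 0.08, or 15.8-fold (adjusted p = 1.32e-22). KG1a lies under 4.02, and if differences are compressed there, which was not tested, these values understate the difference in RNA. MOLM14 exceeded U937 by 0.97 ± 0.08 (adjusted p = 4.09e-10), and HL60 minus MOLM14 was -0.89 ± 0.08 (adjusted p = 1.97e-09). HL60 and U937 differed by 0.08 ± 0.08 (adjusted p = 0.45), with a 95% interval of -0.095 to 0.254.

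Of the 6 pairs of untreated lines, 5 passed for each gene. Differences between untreated lines were common on these arrays: 57.4% of genes passed for HL60 against KG1a, 56.6% for HL60 against MOLM14, 55.9% for HL60 against U937, 61.1% for KG1a against MOLM14, 61.9% for KG1a against U937 and 55.7% for MOLM14 against U937. A pass is therefore frequent for any gene in these comparisons.

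VLDLR-AS1, an antisense RNA gene, overlaps VLDLR and lies on the other strand. Its more strongly hybridizing feature gave 3.97, 4.25 and 3.84 in untreated HL60 and 5.67, 5.76 and 5.66 in treated HL60. It rose by 1.68 ± 0.16 in HL60 (adjusted p = 1.83e-08, limma), by 0.83 ± 0.16 in MOLM14 (adjusted p = 0.00192) and by 1.21 ± 0.16 in U937 (adjusted p = 8.66e-06). In KG1a it measured -0.05 ± 0.16 (adjusted p = 0.93). The same arrays gave the VLDLR differences.

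The U937 value of VLDLR-AS1 leaned on metformin A, which gave 5.69 against 4.85 and 4.80 in the other treated arrays, and it was 0.92 without that array (adjusted p = 8.96e-06). A second feature of the gene gave differences of 1.81 in HL60, 0.70 in MOLM14, 0.69 in U937 and -0.002 in KG1a. The mean of the first feature was under the median of all signals in 4 of the 8 groups. Untreated HL60 (4.021) and untreated MOLM14 (4.022) sat at that median, which is 4.02 after rounding. On the second feature every untreated mean was under it, from 3.449 in KG1a to 3.925 in MOLM14. Whether features of the 2 genes take up each other's transcripts was not tested. PUM3, the nearest named gene on the other side of VLDLR, encodes an RNA-binding protein of the nucleolus and did not pass in any line, with values between -0.23 and 0.16. DMRT2, and NKX2-5 and LINC02995 on both sides of STC2, were under 4.02 in every group and were not tested.

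**Figure D2:**
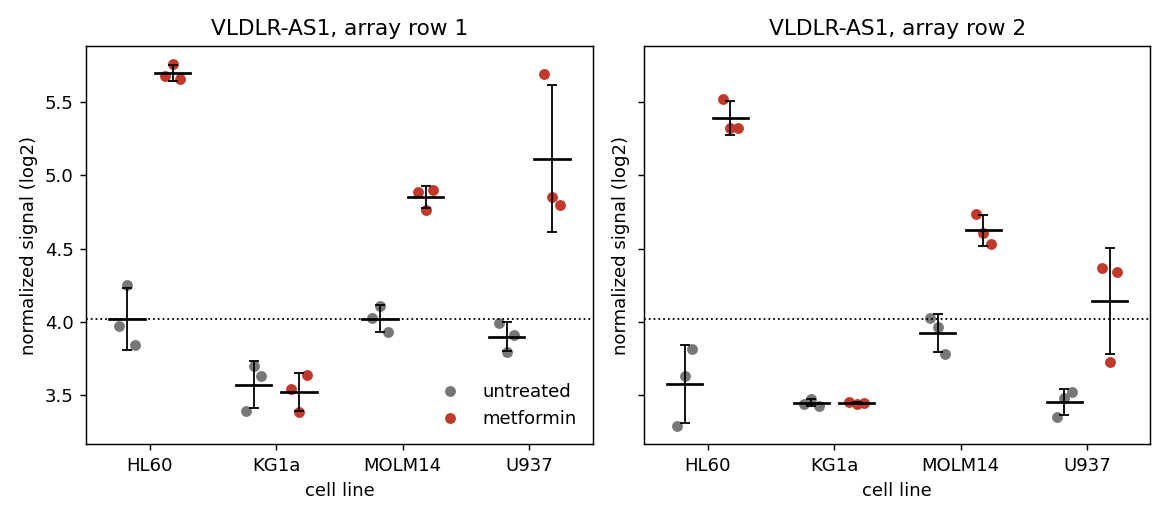
Normalized signal (log2) of the 2 array features of VLDLR-AS1 in the 24 arrays, by line, untreated in grey and metformin-treated in red, with group means, SD (n = 3) and a dotted line at 4.02. In HL60, MOLM14 and U937 the treated arrays lie above the untreated ones on both features, and in KG1a they overlap on both.

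Over the 10641 genes, metformin raised 15.5% and lowered 9.56% in HL60, raised 0.818% and lowered 1.67% in KG1a, raised 2.48% and lowered 2.57% in MOLM14, and raised 7.46% and lowered 9.74% in U937. In HL60 the split of 1649 higher and 1017 lower genes followed the scaling: quantile normalization gave 1278 and 1539, and centring each array on its median gave 1806 and 689. The counts of list genes below are read against these shares. All lists were drawn up with earlier results of these data known and leave out STC2 and VLDLR themselves. Each was only partly named on the array, and only the genes tested are counted.

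Of the other genes of the integrated stress response, most rose in HL60 and U937 and fewer in MOLM14 and KG1a. Of 30 tested, 27 rose in HL60, 24 in U937, 15 in MOLM14 and 10 in KG1a, the rest did not pass, and 0 fell in any line. The rises made up 90%, 80%, 50% and 33.3% of the list, against 15.5%, 7.46%, 2.48% and 0.818% of all genes. The median change was 0.96, 0.70, 0.33 and 0.25, against medians of 0.00 in HL60, -0.01 in U937, 0.00 in MOLM14 and -0.02 in KG1a over all genes. ATF4, the transcription factor at the head of the program, rose in U937 by 0.40 ± 0.10 (adjusted p = 0.00546, limma) and measured 0.17 ± 0.10 in HL60 (adjusted p = 0.207), 0.04 in MOLM14 and 0.05 in KG1a. Without HL60 control C the ATF4 value in HL60 was 0.29 and passed (adjusted p = 0.0301). In all 4 lines 5 of the 30 genes rose, and 10 more rose in HL60, MOLM14 and U937 but did not pass in KG1a.

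The members of this program with the largest changes were CTH, DDIT4 and SESN2. CTH, an enzyme of cysteine synthesis, rose by 2.73 ± 0.13 in HL60, 1.34 ± 0.13 in U937 and 1.26 ± 0.13 in MOLM14, and measured -0.29 ± 0.13 in KG1a (adjusted p = 0.266, limma). DDIT4, an inhibitor of mTORC1, rose by 2.69, 1.72 and 0.73 in the same 3 lines, and SESN2, another brake on mTORC1, by 2.47, 1.83 and 0.71. DDIT3, the gene of the transcription factor CHOP, rose by 2.43 ± 0.12 in HL60, 1.61 ± 0.12 in U937 and 0.68 ± 0.12 in MOLM14. TRIB3, a pseudokinase induced by ATF4 and CHOP, rose by 1.67, 0.73 and 0.94 there. In KG1a none of these 5 genes passed. ATF3 rose in HL60 (0.96 ± 0.12) and measured -0.03 in U937, -0.19 in MOLM14 and 0.19 in KG1a.

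Set beside these genes, the STC2 difference in HL60 was larger than that of all 30 and the VLDLR difference was exceeded by 7. In MOLM14, 9 of the 30 exceeded STC2 and 14 exceeded VLDLR. In U937, 26 exceeded STC2 and 8 exceeded VLDLR, and in KG1a 28 and 27 did. KG1a thus held 10 stress response genes that rose, among them PSAT1 of serine synthesis (1.23) and ASNS, asparagine synthetase (0.68), both picked out after their values were seen, beside an STC2 and a VLDLR signal under 4.02 in both groups.

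**Figure D3:**
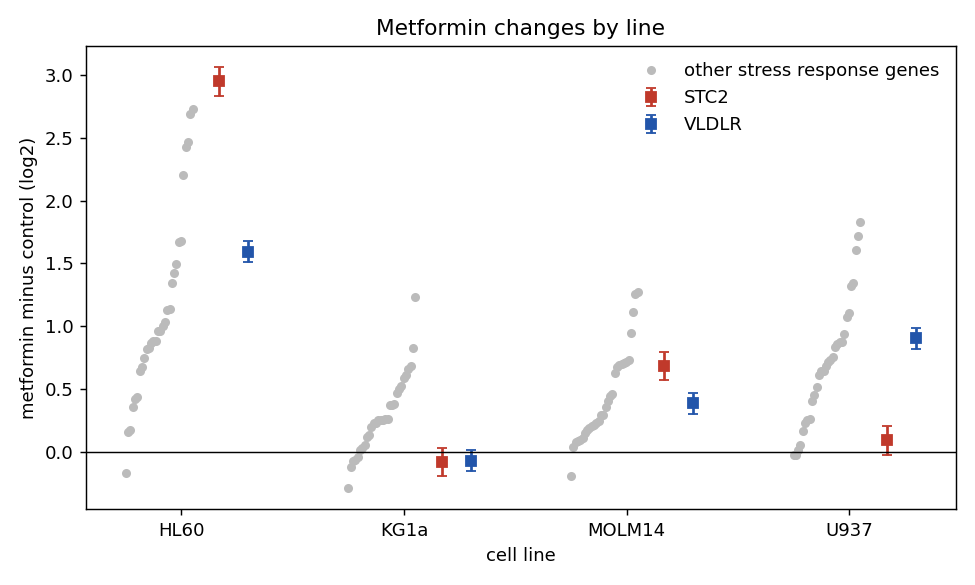
Metformin minus control difference (log2) in each line for the 30 other integrated stress response genes tested (grey, sorted by value), STC2 (red) and VLDLR (blue), the last 2 with the standard error of the limma fit. STC2 lies above all 30 genes in HL60 and near 0 in KG1a and U937, and VLDLR lies at 0.90 in U937.

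Of 28 genes listed for the unfolded protein response proper, 17 were named on the array and tested, and these fell more often than they rose. The chaperone genes HSPA5 and HSP90B1 were not among the 17. In HL60 4 rose and 6 fell, and in U937 1 rose and 7 fell. In MOLM14 3 fell and in KG1a 1 fell. The lower ones made up 35.3% of the list in HL60, 41.2% in U937, 17.6% in MOLM14 and 5.88% in KG1a. Of all genes 9.56%, 9.74%, 2.57% and 1.67% were lower. The higher ones made up 23.5% in HL60, against 15.5%, and 5.88% in U937, against 7.46%. SDF2L1, an endoplasmic reticulum cochaperone, fell in all lines, with -1.08 ± 0.13 in HL60, -0.85 ± 0.13 in KG1a, -0.67 ± 0.13 in MOLM14 and -1.31 ± 0.13 in U937 (largest adjusted p = 0.00298, limma). ERN1, the stress sensor IRE1, rose by 1.62 ± 0.12 in HL60 and 0.89 ± 0.12 in U937, and SEL1L, of the degradation machinery, rose by 0.71 ± 0.09 in HL60.

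A list of the lipoprotein receptor family, its ligands and partners, and scavenger receptors held 19 genes tested. Of these, 2 fell in HL60, 4 fell in U937, 1 rose and 1 fell in MOLM14, and 0 passed in KG1a. The 4 in U937 were LRP3, LRP11, FURIN and CD36, and FURIN and CD36 are not members of the receptor family. The lower genes made up 10.5% of the list in HL60, against 9.56% of all genes, and 21.1% in U937, against 9.74%. LRP5, a Wnt co-receptor of the family, rose in MOLM14 by 0.63 ± 0.11 (adjusted p = 0.000868, limma). LRP3 fell in HL60 (-0.46 ± 0.13) and U937 (-0.46 ± 0.13), losing the call without HL60 control A (adjusted p = 0.0636), U937 control B (0.0647) or U937 metformin B (0.0611). CD36, a scavenger receptor that takes up fatty acids, fell in MOLM14 (-0.55 ± 0.09) and U937 (-0.45 ± 0.09). LRPAP1, the chaperone of the family, and MYLIP, the ubiquitin ligase that marks VLDLR for degradation, did not pass in any line, with values of -0.25 to 0.06. After quantile normalization LRPAP1 passed as lower in HL60 (-0.34, adjusted p = 0.00732), and MYLIP in HL60 (-0.33, adjusted p = 0.00696) and U937 (-0.25, adjusted p = 0.0483). MYLIP also passed as lower without control C in HL60 (-0.35, adjusted p = 0.0251) and in U937 (-0.35, adjusted p = 0.0392). RELN, the ligand reelin, was under 4.02 in every group and was not tested. LRP8 was not analysed here.

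The axis on which stanniocalcin 2 acts was thinly covered, with 8 genes tested. In HL60 2 rose, in U937 1 rose and 2 fell, in MOLM14 1 fell and in KG1a 0 passed. Higher genes made up 25% of the list in HL60, against 15.5% of all genes, and 12.5% in U937, against 7.46%. Lower ones made up 25% in U937, against 9.74%, and 12.5% in MOLM14, against 2.57%. IGFBP4, the binding protein that PAPP-A cuts, fell in U937 by 0.54 ± 0.11 (adjusted p = 0.000928, limma) and measured -0.08, -0.12 and 0.09 in HL60, MOLM14 and KG1a. INSR, the insulin receptor, rose in HL60 (0.47 ± 0.10) and U937 (0.41 ± 0.10), and IRS2, its substrate, fell in MOLM14 (-0.82 ± 0.09) and U937 (-0.36 ± 0.09). The U937 call of IRS2 was lost in the 6 arrays of that line alone (adjusted p = 0.0566, limma), and that of INSR without the 3 arrays least like their groups (adjusted p = 0.0682). HMOX1 did not pass in any line. STC1, the paralog of STC2, was under 4.02 in every group, between 3.37 and 3.64, and was not tested. PAPPA was not analysed here.

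Stanniocalcin 2 has also been described as an inhibitor of store-operated calcium entry. Of 11 genes of that process and of endoplasmic reticulum calcium, 2 rose and 2 fell in HL60. In U937 4 rose and 1 fell, and in MOLM14 and KG1a 0 passed. In HL60 each direction made up 18.2% of the list, against 15.5% of all genes higher and 9.56% lower. In U937 36.4% were higher, against 7.46%, and 9.09% were lower, against 9.74%. STIM1, the calcium sensor of the endoplasmic reticulum, rose in U937 by 0.36 ± 0.09 and in HL60 by 0.24 ± 0.09 (adjusted p = 0.0488, limma). The HL60 call of STIM1 was lost without any 1 array of the line and after quantile normalization (0.10), and the U937 call without metformin A (0.25, adjusted p = 0.0736) or in the 6 arrays of U937 alone (adjusted p = 0.0789). STIM2 fell in U937 (-0.52 ± 0.12), where RYR2, a calcium release channel, rose (0.48 ± 0.12; 0.28 and adjusted p = 0.0557 without metformin A; adjusted p = 0.087 in U937 alone). CRACR2A, a regulator of the channel, rose in HL60 (0.44 ± 0.09). ORAI1, the channel itself, did not pass in any line, and passed as lower in MOLM14 without the 3 arrays least like their groups (-0.32, adjusted p = 0.0373).

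Further lists were drawn up around the described regulators of VLDLR. Of 22 hypoxia genes 2 rose in HL60, MOLM14 and U937 each, VEGFA and DDIT4, which are also on the stress response list. In the same lines 3, 2 and 3 fell, and in KG1a 1 fell. The higher ones made up 9.09% of the list in each of these lines, against 15.5%, 2.48% and 7.46% of all genes. The lower ones made up 13.6%, 9.09% and 13.6%, against 9.56%, 2.57% and 9.74%, and 4.55% in KG1a, against 1.67%. BNIP3, a mitophagy receptor, fell in every line, from -0.36 ± 0.10 in U937 to -0.63 ± 0.10 in KG1a, although the U937 call was lost without control B (adjusted p = 0.0636) or metformin B (0.0573). Of 15 PPAR and lipid droplet genes 3 rose in HL60 and 1 rose and 1 fell in MOLM14. In U937 2 rose and 1 fell, and in KG1a 0 passed. The higher ones made up 20% of this list in HL60, 6.67% in MOLM14 and 13.3% in U937, against 15.5%, 2.48% and 7.46% of all genes. The lower ones made up 6.67% in MOLM14 and in U937, against 2.57% and 9.74%. PPARG itself rose in U937 (0.46 ± 0.11, adjusted p = 0.00397, limma) and in HL60 (0.36 ± 0.11, adjusted p = 0.0158), where it stayed under 4.02 and lost the call without metformin B (adjusted p = 0.0689). The U937 call of PPARG was lost in the 6 arrays of that line alone (adjusted p = 0.0584) and without the 3 arrays least like their groups (adjusted p = 0.0546). PPARA rose in HL60 (0.47 ± 0.11).

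Sterol-regulated genes, which include those of cholesterol synthesis, mostly fell in HL60, U937 and MOLM14. Of 20 genes on a list of SREBP2 targets, 16 fell in HL60, 15 in U937, 11 in MOLM14 and 1 in KG1a. In no line did any rise. These falls made up 80%, 75%, 55% and 5% of the list, against 9.56%, 9.74%, 2.57% and 1.67% of all genes. The list also holds SCAP and MYLIP, which are not SREBP2 targets. INSIG1, the sterol-regulated retention protein, fell in HL60 (-1.70 ± 0.09), MOLM14 (-1.16 ± 0.09) and U937 (-2.12 ± 0.09), and measured -0.11 ± 0.09 in KG1a (adjusted p = 0.651, limma). HMGCS1, an enzyme of the mevalonate pathway, fell in the same lines (-2.34, -0.54 and -1.07), as did ACAT2, which makes its substrate (-1.51, -0.56 and -0.63).

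Genes with the most similar profile were sought by Pearson's r over the 8 group means among the other 10640 genes, as a description over 8 points from 4 lines. Closest to STC2 were NFYC-AS1 (0.982), an antisense RNA, MORN4 (0.978), the microRNA locus MIR643 (0.976), the pseudogene MRPL45P2 (0.972) and the microRNA locus MIR4502 (0.971). Their metformin differences in HL60 were 0.59 to 1.09. The likeness uses the same group means and STC2 peaks in treated HL60, so these differences follow from the choice and are given with no test. The signal of MIR643 reached 4.02 in treated HL60 (4.49) and in no other group. Over the 24 arrays MORN4 ranked first (0.967) and NFYC-AS1 29th. Without treated HL60 the 5 ranked between 44th and 277th.

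Closest to VLDLR were CSTA (0.994), an inhibitor of cysteine proteases, TMEM154 (0.993), DCTN2 (0.991), a dynactin subunit, DNPH1 (0.99), a nucleotide hydrolase, and PECR (0.989), a peroxisomal reductase. The metformin differences of CSTA were 1.28 in HL60 and 0.62 in U937, again with no test because the likeness used them, and CSTA lay under 4.02 in both KG1a groups, as VLDLR did. Those of DNPH1 were between 0.04 and 0.19. Without the 2 KG1a groups the 5 ranked between 44th and 252nd, CSTA at 0.922.

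The profiles of STC2 and VLDLR were themselves less alike, with r = 0.584 over the 8 group means. Within groups, over the 24 arrays' deviations from their means, r was -0.485. VLDLR-AS1 correlated at 0.76 with VLDLR and at 0.715 with STC2 over the group means.

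**Figure D4:**
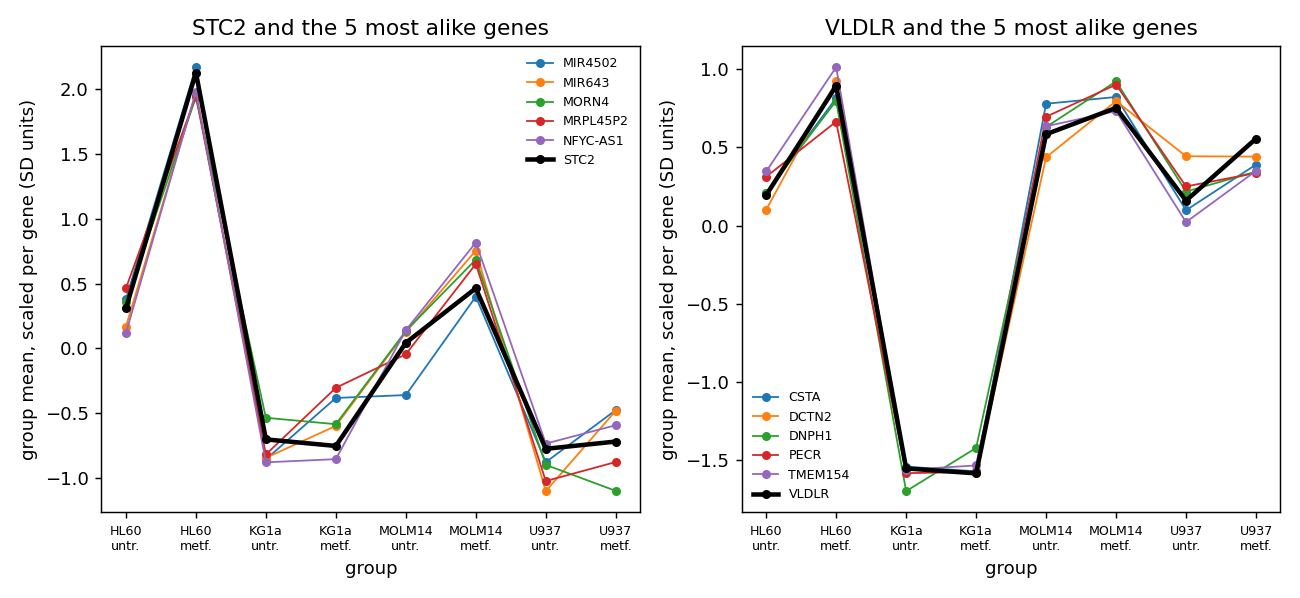
Group means over the 8 groups, each gene centred and scaled to its own SD, for STC2 (left, black) and VLDLR (right, black) with the 5 genes of highest Pearson's r. The STC2 set peaks in treated HL60, and the VLDLR set is lowest in both KG1a groups.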

How the data were processed

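Per the labels' protocols, 250 ng of RNA per sample went onto an Affymetrix array. The authors deposited normalized signals that are taken as log2 values, judging by their range (1.88 to 14.2), because no source names the base. The submitters' processing notes name Partek. Its settings, and the build, are not given in the sources used. Of 53617 array features, 16098 carry 1 gene name. Per gene the feature with the highest mean was used, and genes with at least 1 group mean of 4.02 or more (10641) were tested. A model of 8 group means over 24 arrays was fitted with limma 3.58.1 in R 4.3.3, with 16 residual degrees of freedom and Benjamini-Hochberg adjustment over all genes and a threshold of 0.05. The fit was tested on simulated data, and other scalings, filters, moderation, a replicate block, line subsets and left-out arrays were tried. STC2, VLDLR and all lists were chosen with earlier results of these data known. List genes named are up to 3 per list with the largest called change in a line, a listed set of partners, the neighbouring genes and the 5 most similar profiles per gene. Promoter stretches came from RefSeq. No 2 arrays of a group were duplicates (at most 5 identical values).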

Additional observations from a re-analysis of the deposited data

Results flagged for a closer look

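Among the genes named, 2 had arrays that moved apart in opposite directions in different lines. The difference between lines was not tested, and the share of all genes with such opposite moves was not counted. ERN1, the stress sensor IRE1, was higher without overlap in HL60 (1.616) and U937 (0.891) and lower without overlap in KG1a (-0.147), where it did not pass (adjusted p = 0.612, limma). ACAT2, of the mevalonate pathway, was lower without overlap in HL60 (-1.506), MOLM14 (-0.564) and U937 (-0.627) and higher without overlap in KG1a (0.196, adjusted p = 0.409). Of all genes, treated arrays lay wholly above the untreated ones for 21.2% in HL60, 7.31% in KG1a and 13.6% in U937, and wholly below for 16% in HL60, 13.7% in KG1a, 13% in MOLM14 and 16.3% in U937.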

How the results depend on the processing

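The metformin differences of STC2 and VLDLR (8 values) moved by less than 1 SD between arrays in 119 of 120 alternative values. Many of these could not move: filters, moderation, the block, a line's arrays alone and the mean of a gene's features leave these differences as they are. Only the scalings and the left-out arrays could change them. The value that moved further was STC2 in HL60 after quantile normalization, at 2.81 (2.85 to 3.01 with an array left out). All 180 alternative values of the 12 untreated differences kept their side of the threshold, and the called ones their direction; the uncalled VLDLR difference of HL60 and U937 ran from -0.018 to 0.146. Neither gene could be tested where all 8 group means had to reach the median (the strict filter below; the trend is moderation by signal level). Within a line, the deviations of same-lettered control and treated arrays correlated at -0.062 to 0.146. Differently lettered arrays were not compared, so these values do not settle whether the letters pair the arrays. With the replicate block 2601 genes passed in HL60, 234 in KG1a, 501 in MOLM14 and 1799 in U937, against 2666, 265, 538 and 1830. The filter at the median of row means, the setting of a first run, and the fit without 3 arrays (the 3 lowest in mean correlation among the least alike array of each group; HL60 control A, lower than 1 of them, stays in) were added after seeing the data, as were the profile rankings without KG1a or treated HL60. The first of these gave 2671, 270, 544 and 1839. The cause of the changes below was not tested.

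In KG1a 83 genes passed (42 higher, 41 lower) in a fit of its 6 arrays alone and 470 (166 and 304) without the 3 arrays, which are of other lines; the higher count was 132 after quantile normalization. Leaving out any 1 of its arrays gave 97 to 170 (40 to 66 higher, 44 to 124 lower). In MOLM14 leaving out an array gave 307 to 457 (139 to 254 higher, 151 to 203 lower), and all but control C ended more than 1.5 times below; without the 3 arrays 405 were higher. In U937 its 6 arrays alone gave 847 (349 and 498), the fit without the 3 arrays 428 higher, and leaving out an array 1136 (metformin A) to 1782 (495 to 894 higher, 641 to 1104 lower). In HL60 the lower count was 1539 after quantile normalization.

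The stress response counts stayed within 1.5 times of 27, 10, 15 and 24. The sterol count of KG1a fell from 1 to 0 in its arrays alone and 0 to 1 with an array left out, and that of MOLM14 ran from 7 to 10 with an array left out. Most small list counts moved by 1 or 2 genes. Lower unfolded protein response genes were 2 in KG1a under quantile normalization, the strict filter, the block, its own arrays and without the 3 arrays, 5 in MOLM14 without the 3 arrays (1 to 2 with an array left out) and 4 in U937 alone (6 to 8), and higher ones 1 to 2 in U937 with an array left out. Genes of the lipoprotein receptor list higher in HL60 were 1 with the strict filter or without the 3 arrays and 2 with centred arrays. They were 0 to 1 with an array left out, as in KG1a and U937. Lower ones in HL60 were 4 after quantile normalization and 1 with the strict filter or its arrays alone (1 to 3), 2 in U937 alone (2 to 5), 0 in MOLM14 with the strict filter and 1 in KG1a without the 3 arrays. Higher stanniocalcin axis genes were 1 in MOLM14 under the strict filter, the trend or without the 3 arrays (0 to 1) and 0 in U937 without the 3 arrays (1 to 2), and the lower ones 1 in U937 alone. Calcium genes higher in HL60 were 1 after quantile normalization, without a filter, with the trend or the block, in its arrays alone and without the 3 arrays, and lower ones 1 with centred arrays, without a filter, with the block and in its arrays alone; both were 1 with any array left out. Those higher in U937 were 0 in its arrays alone and 1 without the 3 arrays (1 to 4), and lower ones 2 with the trend (1 to 2). In MOLM14 1 was lower with the strict filter or the trend and 2 without the 3 arrays. Hypoxia genes lower were 6 in HL60 after quantile normalization, 2 in KG1a without the 3 arrays and 1 in U937 alone (1 to 2). PPAR genes higher in U937 were 0 or 1 under most alternatives and 1 with any array left out, 2 in MOLM14 with the trend, its own arrays or without the 3 arrays, and 1 in HL60 with the strict filter. Lower ones in HL60, 0 otherwise, were 2 after quantile normalization and 1 with the strict filter or without the 3 arrays (0 to 1 with an array left out). They were 0 in MOLM14 and U937 with the strict filter, and 2 in U937 after quantile normalization or without the 3 arrays (1 to 2).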
